A study of Mus musculus with 60 samples.

Results

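A set of 10 regulators of brown fat identity and mitochondrial biogenesis were followed through brown and white adipocyte differentiation, a block of heme synthesis in culture, and brown fat lacking Alas1, the first enzyme of heme synthesis. The genes are Ppargc1a, Ppargc1b, Prdm16, Ebf2, Zfp516, Esrra, Esrrg, Irf4, Ppara and Tfam. They are a list of names, set by no threshold on their values but drawn up with earlier results of these data known, and make up 10 of the 22898 genes of the 5 deposited tables. All 10 are in every table. All 10 passed the filter on low values (a highest group mean of at least 4 on the log2 scale) in 4 tables, and 9 passed in white cells, where Esrrg stayed below it.

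Brown adipocytes burn fuel for heat through uncoupled respiration, and their program is set by a small circle of transcriptional regulators. Ppargc1a and Ppargc1b encode the coactivators PGC-1α and PGC-1β, which bind nuclear receptors such as PPARα (Ppara), ERRα (Esrra) and ERRγ (Esrrg) and raise transcription of oxidative and mitochondrial genes. Prdm16, Ebf2 and Zfp516 encode factors that set or keep brown identity, and Irf4 encodes a factor that works with PGC-1α at thermogenic genes in brown fat. Tfam encodes a protein that packages mitochondrial DNA and takes part in its transcription.

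The 60 mouse RNA libraries come from 3 experiments. In experiment 1, wild-type B9 cells (an immortalized line of brown preadipocytes) and wild-type primary brown (pBAT) and primary white (pWAT) preadipocytes from newborn pups were differentiated for 0, 2, 4 or 6 days, with 3 libraries for each of the 12 groups. In experiment 2, wild-type pBAT cells were differentiated with Vehicle, with 1 mM succinylacetone (SA, an inhibitor of heme synthesis), with 10 µM heme-arginate (HA, a soluble form of heme) or with both (HASA), with 4 libraries a group. In experiment 3, brown adipose tissue (BAT) came from female wild-type (WT) mice and from BAKO mice, which lack Alas1 in brown adipocytes only, with 4 animals a group. The strain and age of the mice and the promoter that drives the deletion are not given in the sources used here, and other cells of the tissue keep Alas1. B9 is a single line, and nothing states that the libraries of a culture group came from separate cultures, so p-values in culture measure the spread between these libraries, which may be technical.

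The deposited values are on a log2 scale, on which changes of weakly expressed genes are understated, and the read depth is unknown. Each cell type and each experiment was normalized on its own. Levels are therefore compared within a table only. Alas1 in BAT was 12.73 to 12.97 (log2 value) in WT and 10.15 to 10.61 in BAKO, a change of -2.50 ± 0.11 (SE, n = 4 per group, limma adjusted p = 1.336e-05). Ucp1, the uncoupling protein that marks brown adipocytes, reached a mean log2 value of 7.76 in B9 and 6.41 in pBAT cells at day 6, stood at 15.98 to 16.89 in BAT, and in pWAT cells was under the filter with Cidea and Dio2, which also mark brown adipocytes. The library BAKO 3 carried 0.444% of its summed signal in 12 skeletal muscle marker genes, against at most 0.0231% in the other BAT libraries. Mitochondrially encoded genes took 27.1 to 30.1% of the signal in BAT and 2.89 to 11.4% in culture.

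Promoter windows of RefSeq on GRCm38.p6, from 250 bases before an annotated start to 50 after it, matched 7 of the 10 genes by symbol, with 10 windows in all. Of these, 3 are printed 5′ to 3′ on the gene's strand, those of Ppargc1a, Ppara and Tfam. Ppargc1a and Ppara rose in all 3 cell types and Tfam acts on mitochondrial DNA itself. Esrra, Irf4 and Prdm16, which also have windows, rose in all 3 cell types too. Each printed window holds a motif match, and the windows of Esrra and Irf4 hold none, so the printed windows are not typical of the members. Capitals mark matches to motifs that were searched on both strands. Ppargc1a lies on chromosome 5 (chr5:51567676-51567975, minus strand), Ppara on chromosome 15 (chr15:85735526-85735825, plus strand) and Tfam on chromosome 10 (chr10:71237995-71238294, minus strand).
Ppargc1a: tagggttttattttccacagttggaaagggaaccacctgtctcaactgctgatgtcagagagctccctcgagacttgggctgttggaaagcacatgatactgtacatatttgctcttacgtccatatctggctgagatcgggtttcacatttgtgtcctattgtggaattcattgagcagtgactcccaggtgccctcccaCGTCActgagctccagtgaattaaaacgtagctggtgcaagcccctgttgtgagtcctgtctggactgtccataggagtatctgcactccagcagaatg
Ppara: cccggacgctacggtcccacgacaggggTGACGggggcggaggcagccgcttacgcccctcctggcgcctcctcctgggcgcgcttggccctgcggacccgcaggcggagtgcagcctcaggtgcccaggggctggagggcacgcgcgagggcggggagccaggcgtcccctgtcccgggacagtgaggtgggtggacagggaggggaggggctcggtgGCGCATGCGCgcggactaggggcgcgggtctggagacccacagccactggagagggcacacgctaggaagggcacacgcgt
Tfam: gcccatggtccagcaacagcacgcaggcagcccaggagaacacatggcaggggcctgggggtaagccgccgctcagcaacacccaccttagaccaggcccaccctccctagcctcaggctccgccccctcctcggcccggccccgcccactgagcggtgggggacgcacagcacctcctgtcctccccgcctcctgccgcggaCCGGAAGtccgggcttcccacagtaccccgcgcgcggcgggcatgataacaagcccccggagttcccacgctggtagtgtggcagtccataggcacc
In the Ppargc1a window the core of a cAMP response element, TGACG, reads on the opposite strand from position -49 to the start site. Such elements bind CREB-family factors, which act downstream of adrenergic signals. The Ppara window holds TGACG from position -222 and, from position -31, the palindrome bound by NRF1 (nuclear respiratory factor 1), which is the second run of capitals. The Tfam window holds CCGGAAG, a site bound by GABPA and other ETS factors, from position -47. Of all 32851 promoter windows of the same length, 20.8% hold TGACG, 0.971% hold the NRF1 palindrome and 8.86% hold CCGGAAG. The ERR site AAGGTCA (4.72% of windows) and the IRF repeat (3.44%) are in none of the 10 windows. TGACNNNGC, a core read by BACH1 and NRF2 that can overlap TGACG (12.4% of windows), is in 1 Esrrg window and the Prdm16 window. These matches describe letters in a window and not bound sites.

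The first comparison asked how the regulators change as preadipocytes become adipocytes. From day 0 to day 6 all 10 were called higher in B9 cells, where 40.5% of the 12462 tested genes were called higher and 38.8% lower. In pBAT cells 9 were called higher and 1 lower, against 38.3% and 39.2% of 13144 tested genes. In pWAT cells 7 of the 9 tested were called higher and none lower, against 35.3% and 35.5% of 13057 genes. In B9 cells 4 members (Irf4, Ppara, Prdm16 and Esrrg) had a day 0 mean under the filter and passed it through later days, as did Irf4 in pBAT and pWAT cells, so for these a rise was partly fixed by the filter. A gene is called here at a limma adjusted p under 0.05 over all genes tested. The median change of the members was 1.22 in B9, 1.99 in pBAT and 1.20 in pWAT cells on the log2 scale, beside 0.03, -0.00 and 0.00 for all genes tested. Over the same days the summed share of 12 general adipocyte markers went from 0.0258 to 0.0277% of the signal to 1.45 to 1.53% in B9 cells. In pBAT cells it went from 0.0547 to 0.0572% to 2.12 to 2.28%, and in pWAT cells from 0.032 to 0.0417% to 2.14 to 2.25%. In these bulk samples more RNA per cell and more cells of a type cannot be told apart.

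**Figure D1:**
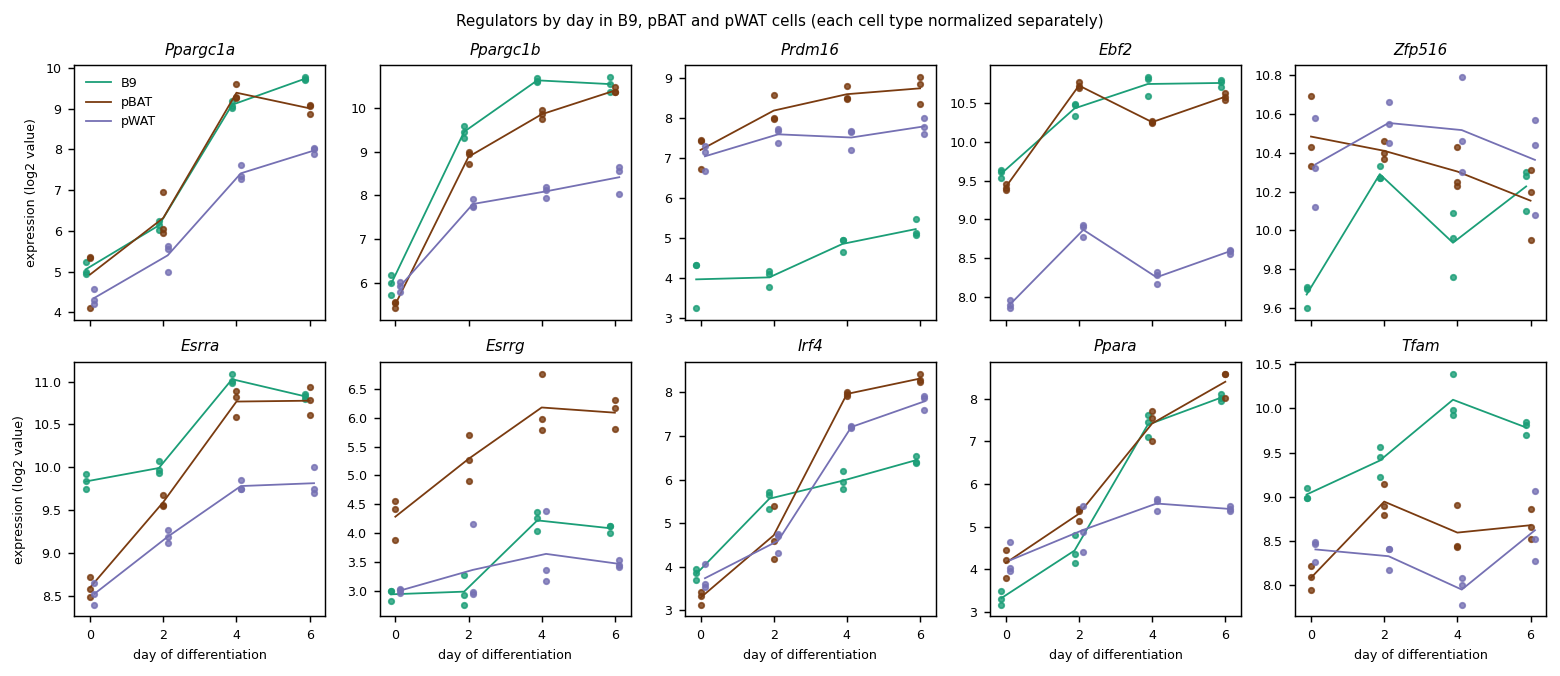
Deposited log2 value of each regulator (y axis) against day of differentiation (x axis) in B9, pBAT and pWAT cells, with 1 point per library and lines through the means of 3 libraries. Ppargc1a, Ppargc1b, Ppara and Irf4 climb most in B9 and pBAT cells, and each cell type was normalized separately, so heights are not compared between colours.

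Among the coactivators, Ppargc1a rose late and Ppargc1b early. Ppargc1a in B9 cells was 4.94, 5.24 and 4.98 (log2 value) at day 0, 6.14, 6.25 and 6.01 at day 2, 9.19, 9.07 and 9.03 at day 4, and 9.78, 9.71 and 9.73 at day 6. No library of one day overlapped with those of another day. Its change from day 0 to day 6 was 4.69 ± 0.11 (SE, limma adjusted p = 2.694e-14), a 25.8-fold rise if the values are read as plain log2, with the largest step, 2.96 ± 0.11, between days 2 and 4. In pBAT cells Ppargc1a stood at 5.33, 4.10 and 5.35 at day 0 and at 9.10, 8.87 and 9.06 at day 6, a rise of 4.08 ± 0.30. Its step from day 2 to day 4 was 3.08 ± 0.30, and its value at day 6 differed from day 4 by -0.39 ± 0.30, which did not pass the test in the fit of all pBAT libraries (adjusted p = 0.322) although the 3 libraries of each day did not overlap. Fitting those days alone gave the same difference an adjusted p of 0.0192. In pWAT cells Ppargc1a went from 4.19, 4.56 and 4.31 to 8.0, 8.04 and 7.88, a rise of 3.62 ± 0.18. Ppargc1a therefore rose in all 3 cell types, in pWAT cells too.

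Ppargc1b had most of its rise behind it by day 2. In B9 cells it was 5.72, 6.19 and 5.99 at day 0 and 9.32, 9.59 and 9.46 at day 2, a step of 3.49 ± 0.12, after which the step to day 4 was 1.18 ± 0.12 and that to day 6 was -0.09 ± 0.12 (adjusted p = 0.553). In pBAT cells it was 5.53, 5.57 and 5.42 at day 0, 9.00, 8.94 and 8.71 at day 2, and 10.37, 10.36 and 10.47 at day 6. The first step was 3.38 ± 0.10 and the whole rise 4.89 ± 0.10. In pWAT cells it went from 5.78, 6.02 and 5.93 to 8.66, 8.55 and 8.04, a rise of 2.50 ± 0.16, of which 1.89 ± 0.16 came by day 2. The Ppargc1b steps in pWAT cells after day 2 were 0.29 ± 0.16 and 0.32 ± 0.16 and did not pass the test. Without replicate 3 of day 6 the last step was 0.51 (adjusted p = 0.0113).

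Of the nuclear receptors, Ppara switches on fatty acid oxidation genes. Like Ppargc1a, it had its largest step between days 2 and 4 in B9 and pBAT cells. The courses of Ppara and Ppargc1a parted after day 4 in pBAT cells, where Ppargc1a did not rise further. In B9 cells Ppara was 3.17, 3.32 and 3.50 at day 0, 4.81, 4.15 and 4.37 at day 2, 7.62, 7.44 and 7.10 at day 4, and 7.95, 8.01 and 8.10 at day 6. The rise over 6 days was 4.69 ± 0.18 (adjusted p = 5.766e-12), with a step of 2.94 ± 0.18 between days 2 and 4. In pBAT cells it went from 4.46, 4.21 and 3.79 to 8.58, 8.02 and 8.58, a rise of 4.24 ± 0.22, and it was still rising from day 4 to day 6 by 0.97 ± 0.22 (adjusted p = 0.00257). In pWAT cells Ppara went from 4.64, 3.97 and 4.04 to 5.48, 5.41 and 5.36, a rise of 1.20 ± 0.25 (adjusted p = 0.000516). The 95% intervals of the whole change were 4.31 to 5.08 in B9, 3.77 to 4.71 in pBAT and 0.67 to 1.73 in pWAT cells. They come from separately normalized tables, so the difference between cell types was not tested.

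The estrogen-related receptors bind the promoters of oxidative phosphorylation genes together with PGC-1 coactivators. Esrra in pBAT cells was 8.49, 8.59 and 8.73 at day 0, 9.56, 9.55 and 9.68 at day 2, 10.89, 10.82 and 10.59 at day 4, and 10.78, 10.61 and 10.94 at day 6. The values of days 4 and 6 overlapped and lay above all earlier ones. It rose by 2.18 ± 0.10 in pBAT cells (adjusted p = 2.302e-11), by 0.98 ± 0.06 in B9 cells and by 1.29 ± 0.10 in pWAT cells. In B9 cells nearly all of that rise fell between days 2 and 4 (1.04 ± 0.06). The B9 step before it, 0.15 ± 0.06 (adjusted p = 0.0368), lost its call without any 1 of 4 of the 6 libraries (adjusted p up to 0.162 without replicate 2 of day 2), and a fall of 0.20 ± 0.06 followed from day 4 to day 6, which lost its call without replicate 1 of day 4 (-0.17, adjusted p = 0.0526). Esrrg was lower on the scale throughout, where changes are compressed. It was 3.89, 4.55 and 4.42 at day 0 and 6.16, 6.30 and 5.80 at day 6 in pBAT cells, a rise of 1.80 ± 0.27 (adjusted p = 2.35e-05). In B9 cells it went from 3.00, 3.00 and 2.83 to 4.01, 4.12 and 4.13, a rise of 1.15 ± 0.16. In pWAT cells its 12 libraries lay between 2.95 and 4.39 and it was not tested.

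The 3 identity factors, Prdm16, Ebf2 and Zfp516, had courses that differed from each other. Prdm16, a zinc finger protein that keeps cells brown, was 7.42, 7.44 and 6.73 at day 0 in pBAT cells and 9.02, 8.34 and 8.85 at day 6, a rise of 1.54 ± 0.22 (adjusted p = 1.128e-05). In pWAT cells it went from 7.15, 7.30 and 6.66 to 7.76, 7.60 and 8.0, a rise of 0.75 ± 0.19 (adjusted p = 0.00238). Prdm16 in B9 cells was 4.32, 4.32 and 3.24 at day 0 and 5.13, 5.06 and 5.46 at day 6, a rise of 1.26 ± 0.25. The B9 values at day 6 all lay above those of day 0, and those of days 0 and 2 overlapped.

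Ebf2 encodes a factor that opens chromatin at brown fat genes in preadipocytes. It rose by day 2 in every cell type. In pBAT cells it was 9.38, 9.46 and 9.41 at day 0, 10.76, 10.71 and 10.69 at day 2, 10.24, 10.25 and 10.26 at day 4, and 10.63, 10.53 and 10.57 at day 6. The 3 libraries of a day lay close together there and the days did not overlap. The pBAT steps were 1.30 ± 0.06, -0.47 ± 0.06 and 0.33 ± 0.06, each past the test. The pWAT steps had the same order of signs, at 0.96 ± 0.09, -0.61 ± 0.09 and 0.33 ± 0.09, and the last lost its call without replicate 2 of day 4 (0.29, adjusted p = 0.0664). In B9 cells Ebf2 climbed from 9.53, 9.61 and 9.63 to 10.59, 10.80 and 10.83 at day 4 and differed by 0.02 ± 0.07 between days 4 and 6.

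Zfp516 encodes a zinc finger protein that binds the Ucp1 promoter. It stood alone among the members in falling in pBAT cells over 6 days, from 10.69, 10.43 and 10.33 to 10.31, 9.95 and 10.20, a change of -0.33 ± 0.10 (adjusted p = 0.00831). That call was lost without replicate 2 of day 0 (-0.23, adjusted p = 0.0539) and without replicate 2 of day 6 (-0.23, adjusted p = 0.0502). In B9 cells Zfp516 went from 9.71, 9.60 and 9.70 to 10.28, 10.30 and 10.10, a rise of 0.56 ± 0.08 (adjusted p = 1.656e-05) that was reached at day 2 and interrupted at day 4 by a step of -0.36 ± 0.08. In pWAT cells its change was 0.02 ± 0.15, with a 95% interval from -0.29 to 0.34.

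Irf4 rose in all 3 cell types. In pBAT cells it was 3.33, 3.41 and 3.12 at day 0, 4.59, 4.18 and 5.39 at day 2, 8.01, 7.92 and 7.97 at day 4, and 8.24, 8.43 and 8.29 at day 6. The rise over 6 days was 5.03 ± 0.23 (adjusted p = 2.459e-11), a 32.7-fold rise on the plain log2 reading. In pWAT cells it went from 3.53, 3.61 and 4.06 to 7.88, 7.92 and 7.59, a rise of 4.06 ± 0.18. In B9 cells it went from 3.70, 3.85 and 3.94 to 6.39, 6.54 and 6.40, a rise of 2.61 ± 0.15. Irf4 is also used by macrophages, B cells and other immune cells. The summed share of 14 macrophage markers went from 0.0221 to 0.0242% of the signal at day 0 to 0.0844 to 0.107% at day 6 in pBAT cells, with 13 of the 14 past the filter. In pWAT cells it went from 0.015 to 0.016% to 0.131 to 0.15%, with all 14 past the filter. The 8 B and plasma cell markers together held 0.000108 to 0.000141% of the summed signal in the pBAT libraries of day 2, and 0.00387 to 0.00428% in those of day 4. In pWAT cells the day 2 libraries held 8.386e-05 to 9.191e-05%, and the day 4 libraries 0.0013 to 0.00145%. Of these 8, Ighm alone was past the filter in the pBAT and pWAT tables. The part of either marker list in the Irf4 rise of the primary cells was not tested. In B9 cells 5 of the 14 macrophage markers (Adgre1, C1qa, C1qb, C1qc and Clec4n) are not among the table's genes, 7 were under the filter, and their sum stayed at or below 0.000945% of the signal.

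Over 6 days Tfam had the smallest called rise in pBAT cells and no call in pWAT cells. In B9 cells Tfam was 8.99, 8.99 and 9.10 at day 0, 9.98, 10.39 and 9.92 at day 4, and 9.81, 9.84 and 9.70 at day 6, a rise of 0.75 ± 0.11 over 6 days (adjusted p = 2.534e-05). In pBAT cells it was 7.95, 8.22 and 8.09 at day 0, 8.90, 9.14 and 8.80 at day 2, and 8.52, 8.66 and 8.86 at day 6, a rise of 0.59 ± 0.14 (adjusted p = 0.00146). The pBAT step from day 2 to day 4, -0.35 ± 0.14, lost its call without any 1 of 4 of the 6 libraries. In pWAT cells Tfam changed by 0.22 ± 0.17 (adjusted p = 0.272) over 6 days, and without replicate 1 of day 6 by 0.39 (adjusted p = 0.04996). From day 4 to day 6 alone it rose there, from 7.78, 8.08 and 8.0 to 8.28, 8.52 and 9.07, by 0.67 ± 0.17 (adjusted p = 0.00826), with no overlap of the days. The other genes of mitochondrial DNA transcription and replication, a list of 15, were called higher in 11 cases in B9, 14 in pBAT and 9 in pWAT cells over 6 days. None was called lower. Of all tested genes 40.5% were called higher and 38.8% lower in B9, 38.3% and 39.2% in pBAT, and 35.3% and 35.5% in pWAT cells. Lonp1, the mitochondrial protease that degrades TFAM, rose by 2.66 ± 0.05 in B9 cells, and Tfb1m, which methylates mitochondrial ribosomal RNA, rose by 1.08 ± 0.15.

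Step by step, the calls moved earlier for some members than for others. From day 0 to day 2 the members called higher were 8 of 10 in B9 (35.1% of all genes), 9 of 10 in pBAT (36.7%) and 7 of 9 in pWAT cells (27.1%). None was called lower, against 34%, 29.7% and 25.5% of all genes. From day 2 to day 4 they were 9 higher and 1 lower in B9 (30.6% and 28.7% of all genes), 6 and 2 in pBAT (32.2% and 31.6%), and 3 and 1 in pWAT cells (25.1% and 22.8%). From day 4 to day 6 they were 4 higher and 2 lower in B9 (26.6% and 26.8%), 3 and 0 in pBAT (19.8% and 23.2%), and 4 and 0 in pWAT cells (16.1% and 15.4%). For members with an earlier mean under the filter, a rise was partly fixed by it. Among the members called higher from day 0 to day 2 these were Irf4 and Ppara in B9 cells and Irf4 in pBAT and pWAT cells. Prdm16 and Esrrg were also under the filter at day 0 in B9 cells and were not called in that step. From day 2 to day 4 it was Esrrg in B9 cells, with means of 2.94 and 2.99 at days 0 and 2. The last pWAT count fell to as few as 2 and rose to 5 when single libraries were left out. Irf4 in pWAT cells lost its day 4 to day 6 call without any 1 of 5 of the 6 libraries and Ppargc1a without any 1 of 4. In B9 cells the Irf4 step from day 2 to day 4 (0.41) lost its call without 3 libraries (replicate 2 of day 2 and replicates 2 and 4 of day 4) and with quantile normalization (0.22, adjusted p = 0.247). From day 4 to day 6 Irf4 lost it without 2 (replicate 1 of day 4, replicate 3 of day 6) and with quantile normalization (0.21, adjusted p = 0.290), which also ended the Prdm16 call from day 2 to day 4 (0.58, adjusted p = 0.0854). Tfam lost its day 4 to day 6 call without 3 (replicate 2 of day 4, replicates 2 and 4 of day 6). In pBAT cells the Esrrg step from day 2 to day 4 lost its call without replicate 4 of either day (0.70 and 0.60), and Prdm16 gained one without replicate 4 of day 2 (0.60, adjusted p = 0.0304). In pWAT cells the calls of Ppara and Prdm16 from day 0 to day 2 were each lost without any 1 of 3 libraries, and Ppara gained a call from day 2 to day 4 without replicate 3 of day 2 (0.90, adjusted p = 0.00578).

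The genes on which these regulators act mostly rose over the same days. Over 6 days 40.5% of all tested genes were called higher and 38.8% lower in B9, 38.3% and 39.2% in pBAT, and 35.3% and 35.5% in pWAT cells. Of 27 oxidative metabolism genes named as PGC-1 and ERR targets, all tested, 26 were called higher and 1 lower in each of the 3 cell types, with median changes of 2.02 in B9, 2.39 in pBAT and 1.54 in pWAT cells. The gene called lower was in each case Cpt1a, the carnitine palmitoyltransferase isoform of liver, at -0.62, -1.34 and -0.32. Hadhb, a subunit of the mitochondrial trifunctional protein of fatty acid oxidation, rose by 3.01 ± 0.07 in B9 cells. Of 17 thermogenic and brown adipocyte targets, 14 of 14 tested rose in B9 cells, 12 of 16 rose and 1 fell in pBAT cells, and 8 of 12 rose and 1 fell in pWAT cells. Dio2 and Fabp3 were not among the genes tested in B9 cells, and Elovl3, Cox7a1 and Ucp1 in B9 cells passed the filter through later days, so these counts are partly fixed by the filter. The gene that fell was Fabp3, a fatty acid binding protein of heart and brown fat, at -3.29 and -2.77. Of 18 PPARα targets 13 of 14 tested rose in B9, 11 of 15 in pBAT and 11 of 15 in pWAT cells, with Angptl4, an inhibitor of lipoprotein lipase, up by 4.24 ± 0.08 in B9 cells.

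Lists of other regulators were mixed, with shares of called genes nearer to those of all genes (40.5% higher and 38.8% lower in B9 cells). Of 18 tested activators of the brown program 12 rose and 5 fell in B9 cells, led by Cebpa at 7.06 ± 0.09 and Pparg at 3.35 ± 0.09, which encode the core adipogenic factors C/EBPα and PPARγ. Of 18 tested repressors 8 rose and 7 fell in B9 cells. Nrip1, the corepressor RIP140 of ERR and PPAR receptors, rose there by 2.43 ± 0.06 beside the rise of Ppargc1a, and it also rose in pBAT (1.27) and pWAT cells (1.97). Among 14 tested regulators of mitochondrial biogenesis 6 rose and 4 fell in B9 cells. Pprc1, the third PGC-1 family member, fell by 1.81 ± 0.07 in B9 cells while Ppargc1a and Ppargc1b rose. Rxrg and Carm1 are on a separate list, of coactivators and partners of PGC-1, PRDM16, EBF2 and ERR. Rxrg, a heterodimer partner of PPAR receptors, rose by 4.58 ± 0.15 in B9 cells. Its day 0 mean of 3.33 was under the filter, so that rise was partly fixed by the filter. Carm1, an arginine methyltransferase that modifies PGC-1α, fell by 1.53 ± 0.05.

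Distance in course from Ppargc1a was the root mean square difference over the 9 changes from day 0 (3 days in 3 cell types). The ranking took 11404 genes tested in all 3 tables, after genes with Gm, Rik, clone-type or identifier names were left out. The genes with courses most like that of Ppargc1a were S100a1 (0.51), Ltc4s (0.51), Elovl3 (0.54), Slc44a3 (0.57) and Pex11a (0.57). S100a1 encodes a calcium-binding protein, Ltc4s the leukotriene C4 synthase, Elovl3 a fatty acid elongase of brown fat, and Pex11a a peroxisome membrane protein. Elovl3 is itself on the list of thermogenic targets. Among the members the nearest in course were Irf4 (1.04, rank 95), Ppara (1.08, rank 116) and Ppargc1b (1.23, rank 173), and the farthest was Zfp516 (3.28, rank 4793). The measure is a description of 36 libraries.

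The second experiment asked what a block of heme synthesis does to these regulators in differentiating pBAT cells, and whether added heme restores them. With SA, 4 members were called lower and 1 higher, against 21.4% and 20% of the 12799 tested genes. Irf4, Ppara, Ppargc1b and Ppargc1a were lower and Zfp516 was higher. Added heme-arginate did not bring the lower ones back: from SA to HASA 8 members were called lower and none higher, against 12.3% and 12.4% of all genes. The median member change in that comparison was -0.29, beside -0.00 for all genes.

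**Figure D2:**
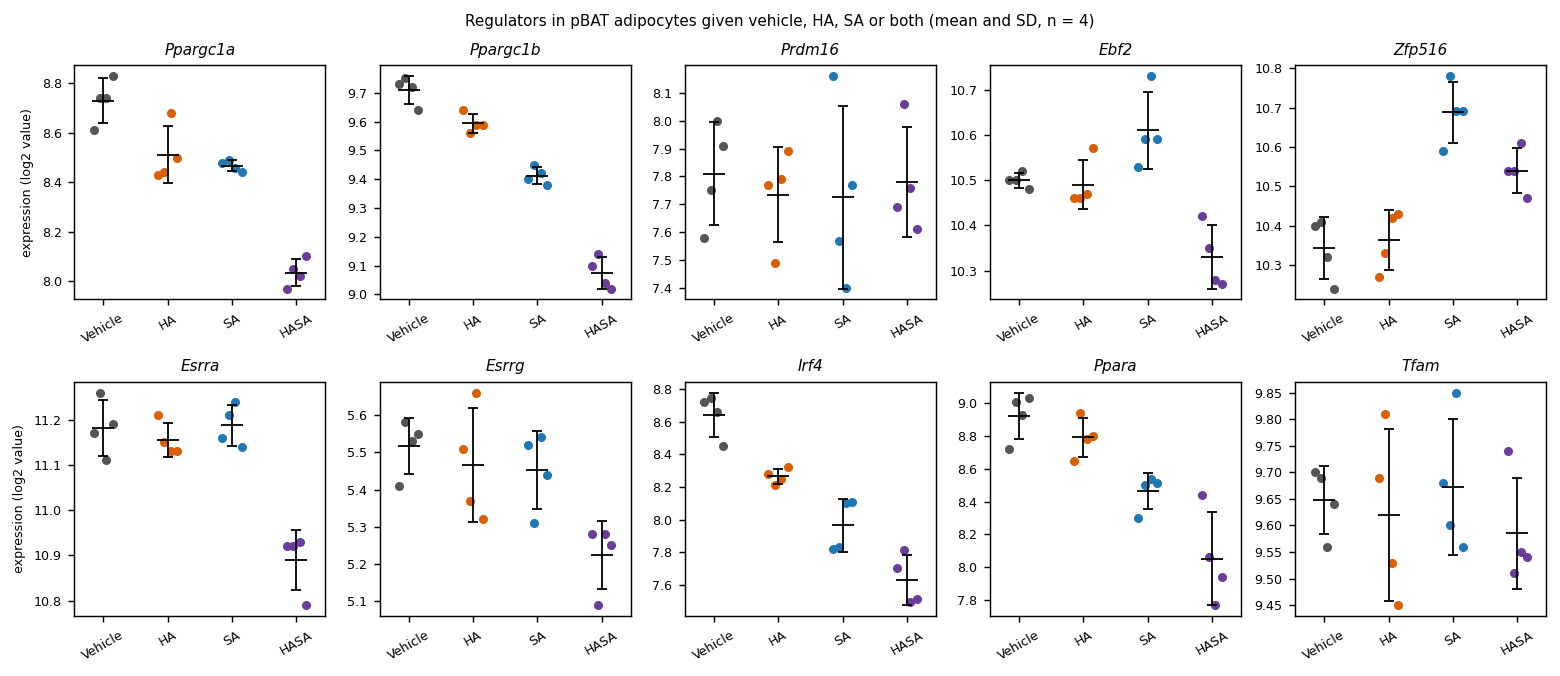
Deposited log2 value of each regulator (y axis, range differing by panel and not starting at 0) in pBAT adipocytes given Vehicle, HA, SA or both, with 1 point per library and bars for the mean and SD of 4 libraries. The 4 HASA libraries lie below the 4 SA libraries for Ppargc1a, Ppargc1b, Ebf2, Esrra, Esrrg and Irf4, and for Zfp516 every SA and HASA library lies above every Vehicle library.

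Ppargc1a was 8.61, 8.74, 8.74 and 8.83 with Vehicle, 8.43, 8.44, 8.68 and 8.50 with HA, 8.48, 8.49, 8.46 and 8.44 with SA, and 7.97, 8.05, 8.02 and 8.10 with HASA. The 4 HASA libraries lay below every other library, and SA lay below Vehicle with no overlap. The change with SA was -0.26 ± 0.06 (limma adjusted p = 0.0012), from SA to HASA -0.44 ± 0.06 (adjusted p = 3.428e-05) and from Vehicle to HASA -0.70 ± 0.06. Ppargc1b was 9.73, 9.75, 9.72 and 9.64 with Vehicle, 9.64, 9.56, 9.59 and 9.59 with HA, 9.40, 9.45, 9.42 and 9.38 with SA, and 9.10, 9.14, 9.04 and 9.02 with HASA. SA and HASA each stood apart from the other groups. Its changes were -0.30 ± 0.04 with SA, -0.34 ± 0.04 from SA to HASA and -0.64 ± 0.04 from Vehicle to HASA (adjusted p = 4.589e-10).

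Irf4 fell most. It was 8.72, 8.75, 8.66 and 8.45 with Vehicle, 8.28, 8.21, 8.25 and 8.32 with HA, 7.82, 7.83, 8.10 and 8.11 with SA, and 7.70, 7.81, 7.49 and 7.51 with HASA. The 4 groups did not overlap and ran down in that order. The change with SA was -0.68 ± 0.09 (adjusted p = 5.625e-06), 1.60-fold lower on the plain log2 reading, and with HASA against Vehicle -1.01 ± 0.09, 2.02-fold lower. The macrophage marker share was 0.0339 to 0.0388% of the signal with Vehicle, 0.0281 to 0.0303% with SA, 0.0459 to 0.0528% with HA and 0.0476 to 0.0579% with HASA, with 13 of 14 markers past the filter and Fcgr1 under it. The share of B and plasma cell markers was 0.00263 to 0.00282% with Vehicle and 0.00323 to 0.00346% with SA. The part of these immune cells in the Irf4 changes with SA, HA and HASA was not tested.

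Ppara was 8.72, 9.01, 8.93 and 9.03 with Vehicle, 8.65, 8.94, 8.78 and 8.80 with HA, 8.30, 8.50, 8.54 and 8.51 with SA, and 8.44, 8.06, 7.77 and 7.94 with HASA. SA lay below Vehicle with no overlap, and 1 HASA library lay within the range of SA. The changes were -0.46 ± 0.11 with SA (adjusted p = 0.00282), -0.41 ± 0.11 from SA to HASA (adjusted p = 0.0111) and -0.87 ± 0.11 from Vehicle to HASA.

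The receptors Esrra and Esrrg did not follow the coactivators under SA. Esrra was 11.17, 11.26, 11.11 and 11.19 with Vehicle and 11.16, 11.21, 11.24 and 11.14 with SA, a change of 0.00 ± 0.04 with a 95% interval from -0.08 to 0.09. With HASA it was 10.92, 10.92, 10.93 and 10.79, below every library of the other groups, and its change from SA was -0.30 ± 0.04 (adjusted p = 4.346e-05). Esrrg was 5.41, 5.58, 5.53 and 5.55 with Vehicle, 5.52, 5.31, 5.54 and 5.44 with SA, and 5.28, 5.09, 5.28 and 5.25 with HASA. Its change was -0.06 ± 0.07 with SA and -0.23 ± 0.07 from SA to HASA (adjusted p = 0.0218). That Esrrg call was lost without replicate 1 of SA, replicate 3 of SA or replicate 2 of HASA (adjusted p 0.0579, 0.0692 and 0.0749).

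Zfp516 was the member called higher with SA. It was 10.40, 10.41, 10.32 and 10.24 with Vehicle, 10.59, 10.78, 10.69 and 10.69 with SA, and 10.54, 10.54, 10.61 and 10.47 with HASA. SA lay above Vehicle with no overlap, at 0.35 ± 0.05 (adjusted p = 2.812e-05), and HASA also lay above Vehicle, at 0.20 ± 0.05 (adjusted p = 0.00404). The fall from SA to HASA of 0.15 ± 0.05 (adjusted p = 0.0379) lost its call without any 1 of 6 of the 8 libraries. Ebf2 was 10.50, 10.50, 10.52 and 10.48 with Vehicle, 10.53, 10.59, 10.73 and 10.59 with SA, and 10.42, 10.35, 10.28 and 10.27 with HASA. Its change with SA was 0.11 ± 0.04 (adjusted p = 0.0509), with no overlap of the groups, and passed the test without replicate 1 of SA (0.14, adjusted p = 0.0253), with the stricter filter (adjusted p = 0.049) and with median centring (0.13, adjusted p = 0.0278). From SA to HASA it fell by 0.28 ± 0.04 (adjusted p = 0.000187).

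Prdm16 and Tfam passed the test in no comparison of the experiment. Prdm16 spread from 7.58 to 8.0 with Vehicle and from 7.40 to 8.16 with SA, and its change with SA was -0.08 ± 0.14, with a 95% interval from -0.38 to 0.21. Tfam was 9.56 to 9.70 with Vehicle and 9.56 to 9.85 with SA, and its change was 0.02 ± 0.08, with an interval from -0.14 to 0.18.

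With HA alone 2 members were called lower, Irf4 at -0.38 ± 0.09 (adjusted p = 0.0095) and Ppargc1a at -0.22 ± 0.06 (adjusted p = 0.0224), against 4.09% of all genes called lower and 4.88% called higher. The Ppargc1a call was lost without any 1 of 6 of the 8 libraries (adjusted p up to 0.0744 without replicate 2 of HA) and 1 HA library lay within the Vehicle range. With HASA against Vehicle 7 members were called lower and 1 higher (23% and 20.9% of all genes), and with HASA against HA also 7 and 1 (22.4% and 20.4%). The comparisons share groups, so they are not independent of each other.

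The interaction of SA and HA compares the HASA effect with the sum of both single effects. It was called lower for 3 members and higher for none, against 3.79% and 3.88% of all genes. The values were -0.27 ± 0.06 for Ebf2 (adjusted p = 0.0125), -0.27 ± 0.06 for Esrra (adjusted p = 0.007) and -0.22 ± 0.05 for Ppargc1b (adjusted p = 0.0178). In these 3 genes the combined treatment gave lower values than the single changes add up to. For Ppara the interaction was -0.28 ± 0.16 (adjusted p = 0.297), called without replicate 1 of HASA (-0.41, adjusted p = 0.045), and for Irf4 it was 0.04 ± 0.12, with a 95% interval from -0.21 to 0.30.

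Targets of these regulators under SA stood mostly lower, where 21.4% of all genes were called lower and 20% higher. Of the 27 oxidative targets 21 were called lower and 1 higher (median -0.20, beside 0.00 over all genes), and of 15 tested thermogenic targets 11 lower and 1 higher (median -0.28). Ucp1 fell by 1.90 ± 0.11 and Cidea, a lipid droplet protein of brown adipocytes, by 2.08 ± 0.09, more than any of the 10 regulators. Adrb3, the β3-adrenergic receptor, rose by 0.98 ± 0.05. Hadhb fell by 0.82 ± 0.04, the carnitine carrier gene Slc25a20 by 0.81 ± 0.04 and the muscle-type carnitine palmitoyltransferase gene Cpt1b by 0.82 ± 0.07. Of the 13 tested PPARα targets 7 were called lower and 2 higher. From SA to HASA 15 oxidative targets were called lower and none higher, against 12.3% and 12.4% of all genes, while Ucp1 differed by 0.02 ± 0.11. Of the 15 genes of mitochondrial DNA transcription and replication 2 fell and 1 rose with SA. The share of 11 preadipocyte and fibroblast markers was 0.726 to 0.788% of the signal with Vehicle, 0.359 to 0.414% with SA and 0.475 to 0.538% with HASA, and that of 8 brown adipocyte markers was 0.0513 to 0.0538%, 0.0331 to 0.0357% and 0.0292 to 0.0312%. Their part in the regulators' changes was not tested.

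Among other regulators under SA, Ppard, the broadly expressed PPAR, rose by 0.87 ± 0.05 where Ppara fell, and Cebpb, an early adipogenic factor, fell by 0.80 ± 0.07. Nr1d1, which encodes the heme-binding repressor REV-ERBα, rose by 0.69 ± 0.06 and its paralog Nr1d2 by 0.42 ± 0.05. Sirt3, a mitochondrial deacetylase, fell by 0.49 ± 0.04. Of 17 tested repressors of the thermogenic program 6 were called higher and 2 lower, and of 20 tested activators 4 and 4, beside 20% higher and 21.4% lower over all genes, so the activators stood at the share of all genes.

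The third experiment asked what loss of Alas1 does in brown fat itself. None of the 10 members was called in BAKO against WT, where 0.111% of the 13497 tested genes were called by limma in either direction. At an unadjusted p under 0.05 there were 4 members (Prdm16, Ebf2, Irf4 and Tfam) and 1173 genes in all. All 10 changes were below 0, with a median of -0.24 beside 0.00 over all genes, and 1 member, Prdm16, had groups that did not overlap, against 5.59% of all genes. The signs of Ppargc1a and Ppara turned when single libraries were left out, at up to 0.13 for Ppargc1a without BAKO 5 and 0.08 for Ppara without WT 1.

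**Figure D3:**
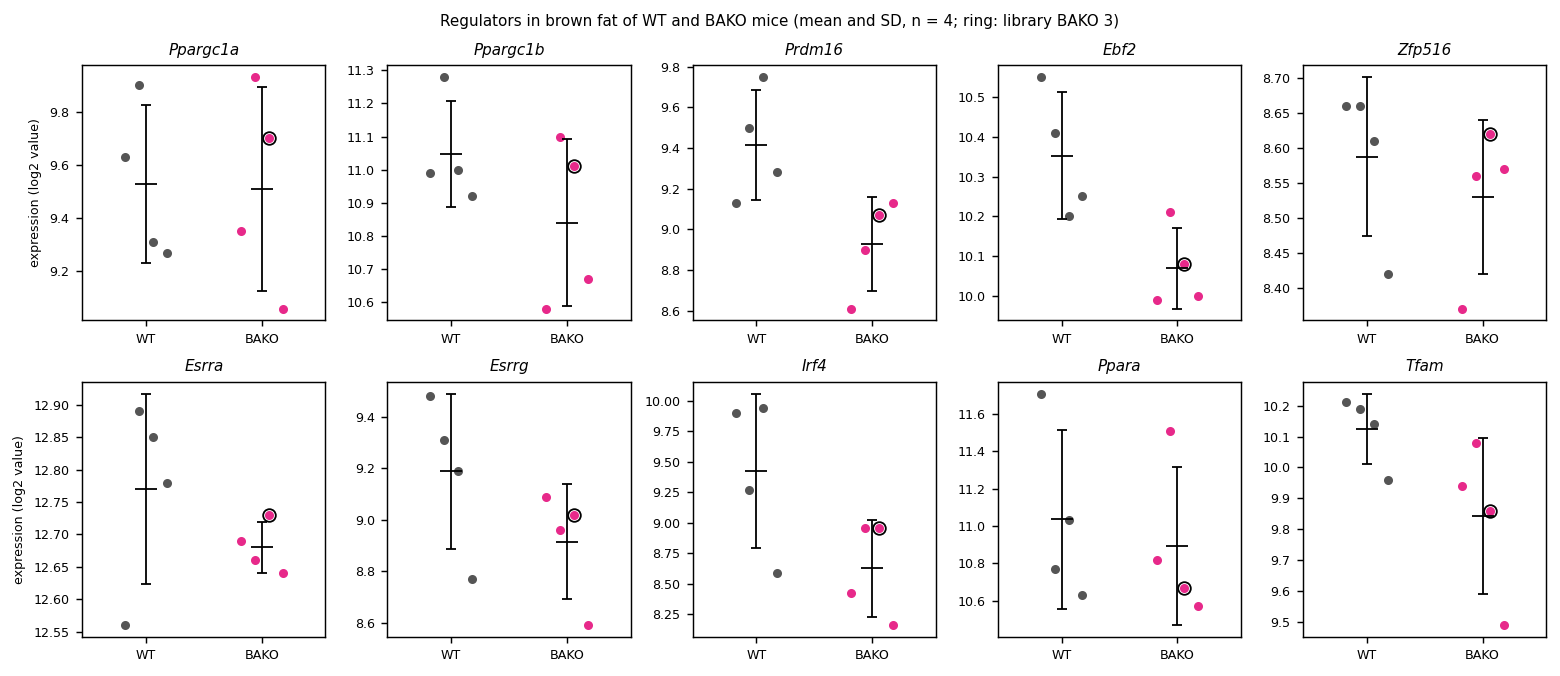
Deposited log2 value of each regulator (y axis, range differing by panel and not starting at 0) in brown fat of WT and BAKO mice, with 1 point per animal, bars for the mean and SD of 4 animals and a ring around the library BAKO 3. The groups overlap for every gene except Prdm16.

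Prdm16 was 9.13, 9.50, 9.75 and 9.28 in WT and 8.61, 8.90, 9.07 and 9.13 in BAKO, where the highest BAKO value lay just below the lowest WT value. The change was -0.49 ± 0.15 (unadjusted p = 0.0103 and adjusted p = 0.367 with limma). Irf4 was 9.90, 9.27, 9.94 and 8.59 in WT and 8.42, 8.96, 8.96 and 8.16 in BAKO, a change of -0.80 ± 0.30 (adjusted p = 0.474). The lowest WT animal lay within the BAKO range. Ebf2 was 10.55, 10.41, 10.20 and 10.25 in WT and 9.99, 10.21, 10.08 and 10.00 in BAKO, a change of -0.28 ± 0.09 (adjusted p = 0.395), with 1 animal of BAKO overlapping. Tfam was 10.21, 10.19, 10.14 and 9.96 in WT and 9.94, 10.08, 9.86 and 9.49 in BAKO, a change of -0.28 ± 0.12 (adjusted p = 0.566). None of these passed the test over all genes.

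Ppargc1a was 9.63, 9.90, 9.31 and 9.27 in WT and 9.35, 9.93, 9.70 and 9.06 in BAKO. The groups covered the same range, and the change was -0.02 ± 0.20 with a 95% interval from -0.46 to 0.43. The interval holds the change that SA gave in culture, so a change of that size was not detectable with these animals. Ppargc1b was 10.99, 11.28, 11.00 and 10.92 in WT and 10.58, 11.10, 11.01 and 10.67 in BAKO, a change of -0.21 ± 0.13. Ppara was 10.63 to 11.71 in WT and 10.57 to 11.51 in BAKO (-0.14 ± 0.26). Esrra was 12.56 to 12.89 and 12.64 to 12.73 (-0.09 ± 0.08), Esrrg 8.77 to 9.48 and 8.59 to 9.09 (-0.27 ± 0.16), and Zfp516 8.42 to 8.66 and 8.37 to 8.62 (-0.06 ± 0.09). Ucp1 changed by -0.28 ± 0.18 (adjusted p = 0.700).

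No gene of the 8 pathway lists was called in BAKO. The medians were -0.23 for 17 tested thermogenic targets, -0.11 for 27 oxidative targets, -0.09 for 16 PPARα targets and -0.07 for 15 genes of mitochondrial DNA transcription and replication. Among PPARα targets Acot1, an acyl-CoA thioesterase, had the change with the smallest p, -0.87 ± 0.20 (adjusted p = 0.192). Among thermogenic targets the smallest p was that of Slc27a2, a fatty acid transport protein and acyl-CoA synthetase, at -0.61 ± 0.10 (limma adjusted p = 0.0887). Next came Otop1 at -0.45 ± 0.10 (adjusted p = 0.174) and, in the other direction, Fabp3 at 0.98 ± 0.26 (adjusted p = 0.28). The macrophage marker share was 0.0154 to 0.0293% of the signal in WT and 0.0186 to 0.0408% in BAKO, with 12 of 14 markers past the filter and Marco and Clec4n under it. The general adipocyte share was 2.49 to 2.77% in WT and 2.26 to 2.40% in BAKO, with no overlap. The part of these shares in the regulators' values was not tested. Without the muscle-bearing library BAKO 3 there was again no member called.

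Within libraries, the balance of related members was compared with an exact permutation test over libraries (two-sided, 70 splits, smallest possible p = 0.0286, n = 4 per group, 4 tests adjusted together). Ppargc1a minus Ppargc1b was -0.98 ± 0.13 (SD) with Vehicle and -0.94 ± 0.02 with SA, a difference of 0.03 (exact p = 0.629, adjusted p = 0.629). It was -1.52 ± 0.18 in WT and -1.33 ± 0.19 in BAKO, a difference of 0.20 (exact p = 0.171, adjusted p = 0.495). Esrra minus Esrrg was 5.66 ± 0.07 with Vehicle and 5.73 ± 0.11 with SA (exact p = 0.371), and 3.58 ± 0.38 in WT and 3.77 ± 0.19 in BAKO (exact p = 0.371, adjusted p = 0.495 for both). No shift of either balance was detected.

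**Figure D4:**
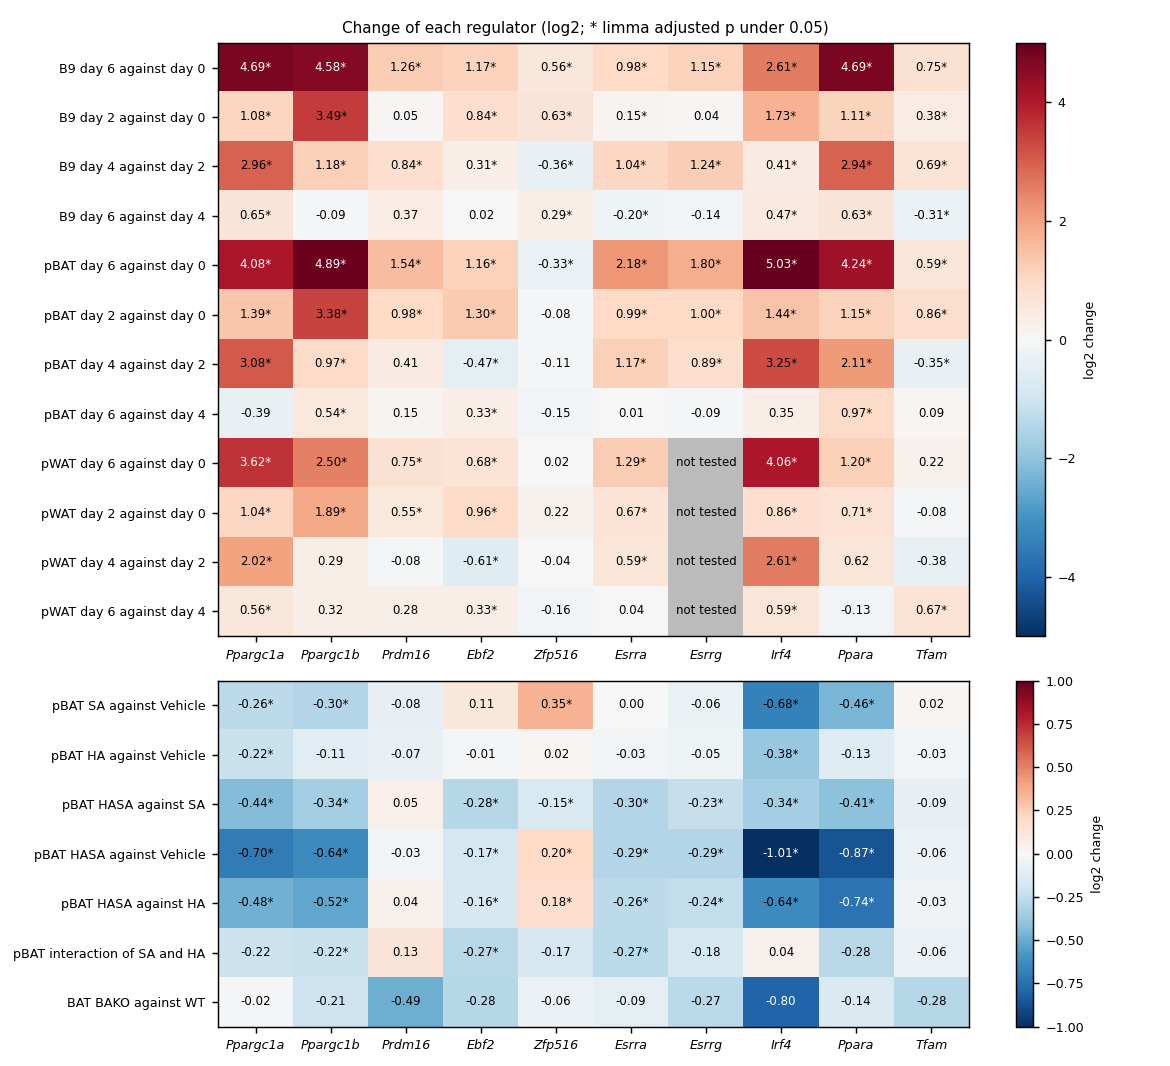
Log2 change of each regulator (columns) in each comparison (rows), as printed in the cells and coloured from -5 to 5 for the day comparisons and from -1 to 1 for treatments and tissue, with an asterisk at a limma adjusted p under 0.05 and grey where a gene was not tested. Day 6 against day 0 in B9 cells has an asterisk in all 10 columns, HASA against SA in 8, and BAKO against WT in none.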

How the data were processed

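RNA sequencing values of 60 mouse libraries were read from 5 tables: B9, pBAT and pWAT time courses, treated pBAT cells, and BAT. Per the submitters' processing notes, kallisto, DESeq2 and the build GRCm39 were used. Their versions are not stated there. The authors deposited log2 values under names that speak of raw counts. That scale was read from the numbers themselves, which include no whole number and, once unlogged with base 2, sum to 18.0 to 29.9 M per library. Depth is unknown, so no counting error is given.

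Symbols came from GENCODE M21 names (99.63 to 99.77% of identifiers matched). The symbols of 3 targets were matched through older synonyms. Genes with a highest group mean of at least 4 were tested with limma 3.58.1 in R 4.3.3, fitting every group of a table together, with a mean-variance trend and Benjamini-Hochberg adjustment over all tested genes, at 0.05. There were 19 comparisons. The script was tested on simulated data.

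The members and the 8 pathway and 13 marker lists were chosen with earlier results of these data known. Text names all members, Ucp1, Alas1 and up to 3 genes per list with the smallest p in B9 day 6 against day 0, SA against Vehicle or BAKO against WT; Cpt1a, Fabp3 and list genes given in other comparisons were added after their values were seen. Marker shares are sums of 2 raised to the value over the library sum. No pair of libraries held identical values. Alternatives were the filter, the scaling, the trend, the samples fitted, a replicate block, marker covariates and each library left out.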

Additional observations from a re-analysis of the deposited data

Results flagged for a closer look

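In 60 groups of 4 libraries (10 genes in 6 groups), 4 had 1 library apart from the other 3 by more than Dixon's 95% critical value for groups of 4. Chance flags about 1 in 20 such groups. Ebf2 was 10.57 in the fourth HA library and 10.46 to 10.47 in the others. Esrra was 10.79 in the fourth HASA library and 10.92 to 10.93 in the others. Esrrg was 5.09 in the second HASA library and 5.25 to 5.28 in the others. Ppara was 8.30 in the first SA library and 8.50 to 8.54 in the others.

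The effect of SA differed with and without added heme-arginate for 3 genes, by the interaction term of limma. The interaction was -0.27 for Ebf2, -0.27 for Esrra and -0.22 for Ppargc1b (adjusted p 0.0125, 0.007 and 0.0178). Without the fourth HASA library, which was low for Esrra, the interaction count stayed at 3 or 4 members, as it did without any other library.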

How the results depend on the processing

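Of the recomputed values, 2478 kept direction and side of the threshold, 74 lost a call, 14 gained one and 63 changed sign. Counts of members called moved by over 1.5 times in 3 cases, apart from fits with 1 library left out. Of those fits, 5 of 6 moved the count that far in pWAT cells from day 4 to day 6, and 5 of 8 for HA against Vehicle. With the replicate number as a block, 3 members instead of 6 were called in B9 cells from day 4 to day 6. Over all 12462 genes tested there, 5882 instead of 6651 were called. Deviations of same-numbered libraries correlated at -0.0914 to 0.136 in the time courses, -0.176 to 0.210 in the treated pBAT cells, and 0.317, -0.0201 and 0.48 in BAT. In no table was every pair above 0.1, so the numbers were not taken as pairs. In BAT, where the correlations reached 0.48, the block changed the genes called from 15 to 3 of 13497. Genes at an unadjusted limma p under 0.05 went from 1173 to 2537 there. Fitting only the groups compared gave 5 members instead of 3 in pBAT cells from day 4 to day 6, and 1 instead of 2 for HA against Vehicle. Over all genes it called 5175 of 12875 instead of 5646 of 13144 in the first case. In the second it called 859 of 12772 instead of 1148 of 12799. The cause was not tested.

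Among single members, calls were also lost for Esrra in B9 cells from day 0 to day 2 with the block, no trend, median centring or only the groups compared (adjusted p 0.0509 to 0.0823). Other losses were Tfam in pBAT cells from day 2 to day 4 with no filter, no trend or only the groups compared (0.0526 to 0.0564) and Zfp516 from SA to HASA with no filter or quantile normalization (0.0611 and 0.0854). Quantile normalization ended the calls of Esrrg in pBAT cells from day 2 to day 4 (0.0538) and of Ppara and Prdm16 in pWAT cells from day 0 to day 2 (0.0521 and 0.0655).

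Changes that turned sign were all uncalled. Under the block they were Esrrg in B9 cells from day 0 to day 2 (-0.0704) and Ebf2 in B9 cells from day 4 to day 6 (-0.0533). Quantile normalization turned Prdm16 in B9 cells from day 0 to day 2 (-0.035) and Zfp516 in pWAT cells over 6 days (-0.0028). Median centring turned the same Ebf2 change (-0.0043) and the same Zfp516 change (-0.0351). In BAKO against WT, Ppara was 0.129 and Ppargc1a 0.115 without BAKO 3 and BAKO 5, and 0.137 and 0.28 with the mean of macrophage markers as a covariate. Quantile normalization shifted the median of all genes by -0.11 in B9 and -0.12 in pWAT cells over 6 days.

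Leaving out 1 library at a time gave 10 to 10, 7 to 8, 9 to 10 and 4 to 6 members called in B9 cells (day 6 against 0, 2 against 0, 4 against 2 and 6 against 4). In the same order it gave 9 to 10, 9 to 9, 6 to 8 and 3 to 3 in pBAT cells and 7 to 8, 5 to 7, 4 to 5 and 2 to 5 in pWAT cells. It gave 5 to 6 for SA, 1 to 2 for HA, 6 to 8 for HASA against SA, 8 to 8 for HASA against Vehicle and against HA, 3 to 4 for the interaction and 0 to 0 for BAKO. The shares of all genes called in these fits are not given here, so the counts are not read against them. The Ppargc1a and Ppargc1b balance differed by -0.0154 to 0.08998 with SA and 0.139 to 0.288 in BAKO, and that of Esrra and Esrrg by 0.0142 to 0.101 and 0.0174 to 0.326. Depth is unknown, and weakly expressed genes such as Esrrg and day 0 Ppara are compressed on the deposited scale.

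Changes that turned sign when single libraries were left out were all uncalled and are given here as lowest to highest. B9 day 2 against day 0 gave Esrrg -0.101 to 0.159 and Prdm16 -0.308 to 0.232. B9 day 6 against day 4 gave Ebf2 -0.059 to 0.0637 and Ppargc1b -0.168 to 0.000214. pBAT day 2 against day 0 gave Zfp516 -0.152 to 0.028. pBAT day 6 against day 4 gave Esrra -0.0755 to 0.0966, Esrrg -0.283 to 0.203 and Tfam -0.00466 to 0.245. pWAT day 6 against day 0 gave Zfp516 -0.089 to 0.163 and Tfam -0.00754 to 0.388. pWAT day 2 against day 0 gave Tfam -0.149 to 0.00332. pWAT day 4 against day 2 gave Zfp516 -0.173 to 0.0702 and Prdm16 -0.184 to 0.0726. pWAT day 6 against day 4 gave Esrra -0.057 to 0.0941. pBAT SA against Vehicle gave Esrra -0.0185 to 0.0308, Tfam -0.0363 to 0.0592 and Prdm16 -0.228 to 0.0236. pBAT HA against Vehicle gave Ebf2 -0.0371 to 5.993e-05, Prdm16 -0.152 to 0.00538, Tfam -0.0932 to 0.0267 and Zfp516 -0.0131 to 0.0522. pBAT HASA against SA gave Prdm16 -0.054 to 0.197. pBAT HASA against Vehicle gave Prdm16 -0.124 to 0.0327. pBAT HASA against HA gave Tfam -0.089 to 0.0309 and Prdm16 -0.0488 to 0.101. pBAT interaction of SA and HA gave Tfam -0.112 to 0.00804 and Irf4 -0.019 to 0.105. BAT BAKO against WT gave Ppargc1a -0.154 to 0.134 and Ppara -0.349 to 0.0821.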
